A study of Mus musculus with 4 samples.

Results

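Imprinted genes are expressed in offspring mainly from the copy inherited from either the mother or the father. The genes described here are 50 mouse genes from well-studied imprinted domains, chosen by symbol as known imprinted genes and not by a measured value. Of these, 33 were among the 16861 genes listed in the RNA-seq files. The RNA came from germinal vesicle (GV) oocytes, fully grown and arrested in the first meiotic prophase, of female C57BL/6J mice aged 3 weeks. After removal of cumulus cells by pipetting, they were sorted by Hoechst staining in M2 medium with milrinone into NSN oocytes (non-surrounded nucleolus), with diffuse chromatin, and SN oocytes (surrounded nucleolus), with chromatin condensed in a ring around the nucleolus. There was no genetic change and no other treatment in either group, and the RNA levels of imprinted genes were compared between them. Each group had 2 Smart-seq2 libraries of 15 pooled oocytes, made from poly(A)-primed cDNA with 18 cycles of PCR, although the protocol speaks of 3 samples per group. Nothing in the sources used here says that the replicates came from separate animals, so the p-values measure the spread between these libraries, which may be technical.

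In the germ line, imprints are set as DNA methylation, which marks the differentially methylated regions that later decide which parental copy is silent. Maternal imprints are written in the growing oocyte by Dnmt3a with its cofactor Dnmt3l, after removal of histone H3K4 methylation by Kdm1b, and after fertilisation they are protected by the zinc finger protein Zfp57 with Trim28. A smaller class of genes is silenced on the maternal copy by H3K27me3 laid down by Polycomb proteins in the oocyte. A GV oocyte still holds both homologous chromosomes, whose earlier imprints were erased in the germ line. The levels below are sums over both copies, and neither imprints nor allele-specific expression were measured.

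The values were FPKM, that is read pairs scaled by gene length and library total. The totals recovered from the files ranged from 17069772 to 17998361 read pairs, and a value that rests on few read pairs is imprecise. PCR duplicates cannot be recognised without molecular identifiers, so counting limits cover counting error only. SN was compared with NSN by limma on log2(FPKM + 0.5) on the 11672 genes whose mean FPKM reached 0.5, and a gene was called at a Benjamini-Hochberg adjusted p under 0.05 with a fold change of at least 1.2. Fold changes on this scale understate the change of low genes. A two-sided exact permutation p of 2 libraries against 2 is never below 0.333, and the p-values here depend on variances that limma pools across genes. The smallest adjusted p of any gene was 0.0364. Limma called 0 genes in all when run without the filter (4092 at an unadjusted p under 0.05), without the variance trend (3449) or without NSN replicate 1 (2278), whereas voom called 1763 higher and 534 lower, a split that turned to 744 higher and 963 lower with median scaling. The limma calls below thus stand close to the threshold in this fit, and on simulated data its share of wrong calls was above the nominal level, so the adjusted p-values may be too small. FPKM are relative to the library, so less RNA of a gene and more RNA of other genes cannot be told apart, nor can fewer cells of a type and less RNA per cell.

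The cell type was checked against its markers. Of 12 oocyte markers 11 were listed, led by Zp3, and all 11 passed the filter, while Sohlh1 was not listed. Their summed FPKM was 25660 and 24312 in NSN and 17391 and 16122 in SN oocytes, and limma called 8 of them lower (1.98% over all genes tested) and 0 higher in SN oocytes, with 1 higher at an unadjusted p under 0.05 and 1 by voom. The 8 became 4 with quantile normalization, 2 without SN replicate 2, and 0 without NSN replicate 1, without the filter or without the variance trend. The part of this fall in the relative levels of other genes was not tested. Of 15 granulosa and cumulus cell markers, 9 were listed and Amh, Amhr2, Foxl2, Gatm, Ptx3 and Tnfaip6 were not. Their summed FPKM was 14.5 and 18.4 in NSN and 19.5 and 18.6 in SN oocytes, with Cyp19a1 the most abundant. Limma called 0 of the 5 granulosa and cumulus markers that passed the filter, with 0 at an unadjusted p under 0.05 and 0 called by voom on read pairs. Over all 11672 genes 3695 had an unadjusted p under 0.05, so 0 of so few genes says little. Of 8 endothelial and blood markers, 3 were listed and their summed FPKM was 5.19 and 5.89 in NSN and 5.51 and 5.67 in SN oocytes. Most of that sum was Pecam1, whereas Cdh5, Hba-a1, Hbb-bs, Ptprc and Lyz2 were not listed. Limma called 0 of the 2 endothelial and blood markers tested, with 0 at an unadjusted p under 0.05 and 0 by voom.

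Most of the imprinted genes that were listed had little RNA in GV oocytes. Of the 50 genes, 22 passed the filter, 11 were listed with a mean FPKM under 0.5, and 17 were not listed. No listed gene had 2 or more libraries at 0, whereas 560 had 1, so an unlisted gene may have had read pairs in some libraries, and its level is unknown. The 17 unlisted genes were H19, Igf2, Ndn, Magel2, Mkrn3, Peg10, Ascl2, Nnat, Dlk1, Mirg, Rtl1, Zrsr1, Slc38a4, Jade1, Smoc1, Nespas and Peg13. By the copy that is usually expressed after fertilisation, 15 of 18 maternally expressed and 16 of 30 paternally expressed genes were listed, and 10 of each passed the filter. The remaining pair, Grb10, whose active copy depends on the tissue, and Herc3, the host of an imprinted retrogene, also passed. Only Mest, H13 and Commd1 had a mean FPKM of at least 10, and the median of the means of the 22 tested genes was 1.84 FPKM, against 4.45 over all 11672 genes tested. The summed FPKM of the 33 listed genes was 124 in each NSN library and 131 and 125 in the SN libraries.

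Of the 22 tested imprinted genes, limma called 2 higher in SN oocytes, namely the retrogenes Mcts2 and Nap1l5, where 695 genes or 5.95% of all tested genes were called higher. Both had a mean under 0.5 FPKM in NSN oocytes and passed the filter only through the SN libraries, where they are high, and with 0.5 FPKM required in every library neither was tested. It called 0 lower, where 231 genes or 1.98% were called lower. At an unadjusted p under 0.05, 6 of the 22 were higher and 2 lower in SN oocytes, against 2777 and 918 of all 11672 genes. Voom on the read pairs called 3 higher (Nap1l5, Dcn and Ube3a) and 1 lower (Impact), against 15.1% and 4.58% of all genes in that fit. Both SN libraries lay above both NSN libraries for 11 of the 22, against 44.8% of all genes tested, and below them for 4, against 17.8%. The mean was higher in SN oocytes for 14 of the 22 (63.6%), against 66.7% of all genes tested, and the median log2 fold change was 0.16, against 0.14. These shares were close to those of all genes. The median of all genes moved from 0.14 to 0.0051 when the libraries were scaled to their median gene, and that of the 22 genes to 0.039. For most genes that were not called, this scaling or leaving out 1 library moved the log2 fold change by over 1.5 times. With this scaling 0 imprinted genes were called in either direction, and the split over all genes turned from 695 higher and 231 lower to 78 higher and 179 lower. Plagl1 also passed the filter only through the SN libraries, so the counts over the genes that passed cannot be read as those of all 50.

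**Figure D1:**
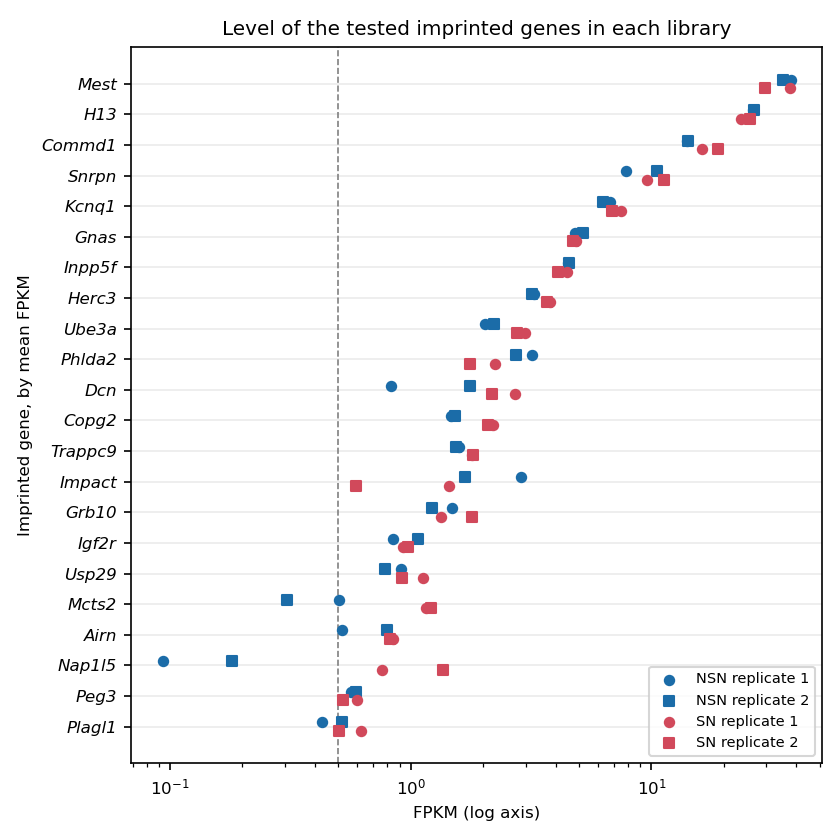
FPKM (log axis) of the 22 tested imprinted genes in each library, ordered by mean, with NSN in blue, SN in red, circles for replicate 1 and squares for replicate 2; the dashed line is the filter of 0.5. Mest, H13 and Commd1 are the most abundant, and the groups are farthest apart for Nap1l5 (0.0935 and 0.182 in NSN, 0.762 and 1.36 in SN).

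Several imprinted genes are retrogenes, that is copies made from the mRNA of another gene and inserted into the intron of a host gene. Nap1l5 belongs to the nucleosome assembly protein family and lies in an intron of Herc3, on the opposite strand. Its FPKM was 0.0935 and 0.182 in NSN and 0.762 and 1.36 in SN oocytes. Both SN libraries lay well above both NSN libraries, although they differed from each other as well. These values rest on 3 and 6 read pairs in NSN and 24 and 45 in SN oocytes, and the gene passed the filter only through its SN level. The means of 2 libraries (± SD) were 0.138 ± 0.0624 FPKM for NSN and 1.06 ± 0.420 FPKM for SN, a ratio of 7.70. On the log2(FPKM + 0.5) scale limma gave a log2 fold change of 1.27 ± 0.24 (standard error; adjusted p = 0.041), and on the read pairs themselves voom gave 2.82 (adjusted p = 0.0056). Over all alternatives its adjusted p ranged from 0.0056 to 0.117, and the call was lost without NSN replicate 1 (0.117), without SN replicate 2 (0.101), after median scaling (0.058) or quantile normalization (0.0556), without the filter (0.056) and without the variance trend (0.0921).

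Mcts2 is the retrogene copy of Mcts1, a gene of the X chromosome whose product acts in translation reinitiation and ribosome recycling, and it lies in an intron of H13 on the same strand. Its FPKM was 0.504 and 0.306 in NSN and 1.16 and 1.22 in SN oocytes, from 8, 5, 18 and 20 read pairs. The SN libraries were close to each other and above both NSN libraries, and only through them did the gene pass the filter. The means of 2 libraries (± SD) were 0.405 ± 0.14 FPKM for NSN and 1.19 ± 0.0440 FPKM for SN, a ratio of 2.93, and limma gave a log2 fold change of 0.91 ± 0.19 (standard error; adjusted p = 0.045). This call was close to the threshold. It was lost without any of the libraries, with an adjusted p of 0.0954 without NSN replicate 1, 0.0827 without NSN replicate 2, 0.103 without SN replicate 1 and 0.122 without SN replicate 2, and over all alternatives the adjusted p ranged from 0.043 to 0.122. The call was also lost with a pseudocount of 0.1 (0.0512), by voom (0.0533, log2 fold change 1.52) and by voom with median scaling (0.0911). The same held for limma after median scaling (0.0682) or quantile normalization (0.0742) and with the replicate block (0.0617). Without the filter (0.0649) or the variance trend (0.0921) it was lost as well. The parent gene Mcts1 had an FPKM of 1.98 and 2.28 in NSN and 1.65 and 2.91 in SN oocytes, and its groups overlapped (log2 fold change 0.04, limma adjusted p = 0.921). The transcripts of Mcts2 and Mcts1 were 84.7% identical over 668 aligned bases, with 102 differing bases, and whether read pairs of Mcts2 were placed on Mcts1 or the reverse was not tested.

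The hosts of these retrogenes had more RNA and smaller differences. H13, a signal peptide peptidase of the endoplasmic reticulum, is known for transcripts that end at different polyadenylation sites according to the parental copy. It had an FPKM of 26.3 and 26.8 in NSN and 23.6 and 25.7 in SN oocytes (log2 fold change -0.10, standard error 0.09, limma adjusted p = 0.474). Both SN libraries were slightly below both NSN libraries, and 10.6% of its exonic bases are shared with other annotated genes. This share and the others below were taken from a later GENCODE release than the one used for counting. H13 has 17618 exonic bases there, against a length of 5919 bases recovered from the values. Such shares may thus differ from those of the exons counted. Herc3, a ubiquitin ligase of the HECT family, had 3.24 and 3.19 FPKM in NSN and 3.78 and 3.66 in SN oocytes (log2 fold change 0.19, limma adjusted p = 0.362). The libraries of each group lay close together with SN above NSN, and the difference did not pass the threshold. The fold changes of each retrogene and its host were not tested against each other. Both retrogenes lie within host introns, and counting was without strand. The part of unspliced host RNA in the few read pairs of Mcts2 and Nap1l5 was not tested.

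**Figure D2:**
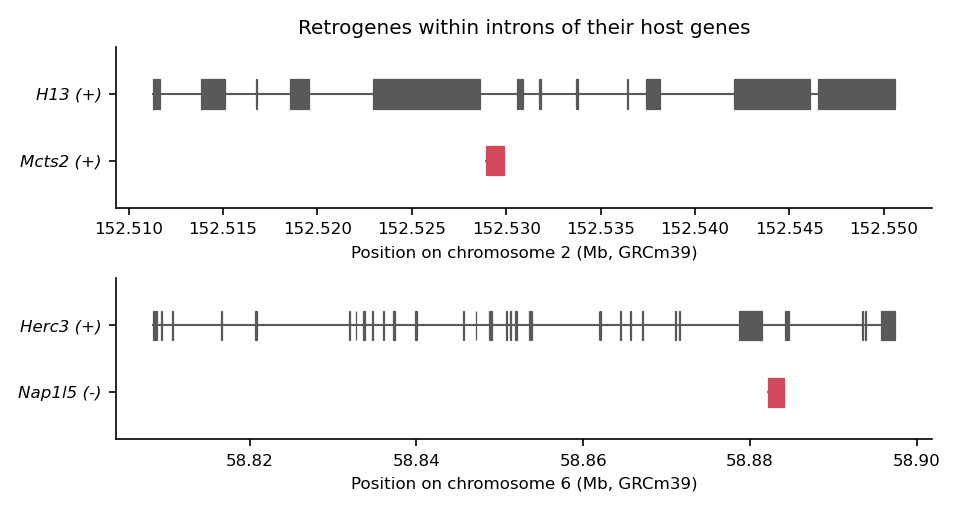
Annotated exons (boxes) of the retrogenes Mcts2 and Nap1l5 (red) and of their hosts H13 and Herc3 (grey) along chromosomes 2 and 6 of GRCm39, with the strand in parentheses. In this annotation, both retrogenes lie between exons of the host and share no exonic base with it. Mcts2 is on the strand of H13 and Nap1l5 is on the strand opposite to Herc3. RNA from host introns was not measured apart.

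On GRCm39, Mcts2 (ENSMUSG00000042814.9) spans 152528955 to 152529866 on the forward strand of chromosome 2 within H13 (ENSMUSG00000019188.18, 152511306 to 152550590). Nap1l5 (ENSMUSG00000055430.5) spans 58882218 to 58884061 on the reverse strand of chromosome 6 within Herc3 (ENSMUSG00000029804.19, 58808442 to 58897383). The bases upstream of both genes were searched for TGCCGC or its reverse complement GCGGCA, the hexamer that Zfp57 binds when its CpG is methylated. RefSeq gave promoter windows (build GRCm38.p6) for 38 of the 50 genes, 60 windows in all. Within the 250 bases before the transcription start, the hexamer occurred in 8 of these 60 windows (13.3%), belonging to 7 genes (Copg2, Mcts2, Meg3, Mest, Nap1l5, Plagl1 and Zim1), and in 2850 of all 32851 windows (8.68%). The median number of CpG was 10 in the windows of the imprinted genes and 6 over all windows. The window of Mcts2 held 20 CpG and that of Nap1l5 held 10. Because these 2 genes were called, the bases before their annotated start are given below, read 5′ to 3′ on the strand of the gene with the hexamer in capitals. The run of Mcts2 is the part of its window, chr2:152528818-152528954, that precedes the gene in GENCODE, lies in an intron of H13 and holds 12 CpG. That of Nap1l5, chr6:58884112-58884361, ends 50 bases before the gene in GENCODE and overlaps, from 58884247 on, an exon of Herc3 on the opposite strand. A match is a description of these letters and not of binding.
Mcts2: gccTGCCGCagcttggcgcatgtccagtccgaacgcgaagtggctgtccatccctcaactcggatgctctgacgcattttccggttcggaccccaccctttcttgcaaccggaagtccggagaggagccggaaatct
Nap1l5: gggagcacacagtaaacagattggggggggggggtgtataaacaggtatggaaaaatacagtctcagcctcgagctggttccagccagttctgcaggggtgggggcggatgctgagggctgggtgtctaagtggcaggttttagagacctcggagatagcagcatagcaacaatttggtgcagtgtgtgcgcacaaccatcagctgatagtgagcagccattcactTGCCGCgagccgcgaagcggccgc

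Commd1, which acts in copper and endosomal trafficking, hosts the retrogene Zrsr1. It had 14.1 and 14.2 FPKM in NSN and 16.3 and 18.8 in SN oocytes (log2 fold change 0.30, standard error 0.11, limma adjusted p = 0.120), so that SN lay above NSN. Without SN replicate 2 the log2 fold change was 0.20, and after median scaling 0.15. Commd1 shares 11.8% of its exonic bases with Commd1b and Gm73394. Zrsr1 itself was not listed, and its X-linked parent Zrsr2, a splicing factor of the minor spliceosome, had 1.74 and 1.40 FPKM in NSN and 1.66 and 1.17 in SN oocytes, with overlapping groups. Mest, an enzyme of the alpha/beta hydrolase fold, was the most abundant of the 33 listed imprinted genes. It had 37.8 and 35.2 FPKM in NSN and 37.7 and 29.5 in SN oocytes, and the groups overlapped (log2 fold change -0.13, standard error 0.13, limma adjusted p = 0.526). Its sign turned without SN replicate 2 (0.046). Copg2, a coat protein of transport vesicles, converges on Mest. In the later release 34.5% of its exonic bases and 47.7% of those of Mest are shared. Mest has 8070 exonic bases there, against a recovered length of 2776, and Copg2 has 11169 against 3961. Where the exons counted were shared, read pairs of these genes cannot be told apart without strand. Copg2 had 1.46 and 1.52 FPKM in NSN and 2.19 and 2.09 in SN oocytes (log2 fold change 0.40, limma adjusted p = 0.123). Its replicates lay close together with SN above NSN.

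Trappc9, a subunit of a vesicle tethering complex, hosts the noncoding gene Peg13, which was not listed. It had 1.59 and 1.54 FPKM in NSN and 1.79 and 1.82 in SN oocytes (log2 fold change 0.16, limma adjusted p = 0.491), with SN above NSN. Inpp5f, a phosphoinositide phosphatase with an imprinted internal transcript, had 4.52 and 4.54 FPKM in NSN and 4.44 and 4.08 in SN oocytes. SN lay slightly below NSN (log2 fold change -0.08, limma adjusted p = 0.691). Inpp5f shares 24.55% of its exonic bases with Gm43580 and Mcmbp.

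Of the 9 genes of growth signalling and growth control, 7 were listed, 4 were tested and 0 were called by limma in either direction, with 1 at an unadjusted p under 0.05 (Phlda2) and 0 by voom. Over all genes limma called 5.95% higher and 1.98% lower and voom 15.1% and 4.58%, so few calls among 4 genes say little. Phlda2, a pleckstrin homology protein that restrains placental growth, had 3.19 and 2.73 FPKM in NSN and 2.24 and 1.76 in SN oocytes, from 42, 37, 29 and 24 read pairs. Its SN values lay under the NSN values, and the log2 fold change of -0.47 did not pass the threshold (limma adjusted p = 0.115). Gnas, the stimulatory G protein alpha subunit that keeps cAMP high in arrested oocytes, had 4.83 and 5.18 FPKM in NSN and 4.85 and 4.72 in SN oocytes (log2 fold change -0.06, limma adjusted p = 0.771). Its groups overlapped, and 9.26% of the exonic bases of Gnas are shared with the antisense gene of the locus. Grb10, an adaptor that dampens insulin receptor signalling, had 1.48 and 1.23 FPKM in NSN and 1.34 and 1.80 in SN oocytes (log2 fold change 0.15, limma adjusted p = 0.606). Igf2r, the receptor that clears Igf2, had 0.847 and 1.07 FPKM in NSN and 0.929 and 0.975 in SN oocytes (log2 fold change -0.0038, limma adjusted p = 0.990). The groups of both genes overlapped. The ligand Igf2 and the Notch ligand homologue Dlk1 were not listed.

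The RNA and translation genes comprised Impact and Snrpn, with the retrotransposon-derived Peg10 and Rtl1 not listed. Impact restrains the eIF2 alpha kinase Gcn2. It had 2.87 and 1.68 FPKM in NSN and 1.45 and 0.591 in SN oocytes, from 188, 113, 93 and 40 read pairs. All SN values were below all NSN values, but the replicates of each group differed widely. Limma gave a log2 fold change of -0.89 ± 0.33 (standard error; adjusted p = 0.121), which did not pass the threshold. It was -0.48 without SN replicate 2, -0.58 without NSN replicate 1, -1.21 without NSN replicate 2 and -1.31 without SN replicate 1. Over the alternatives its adjusted p ranged from 0.0236 to 0.400, and it was called lower by voom (0.0236), by voom with median scaling (0.0262) and without NSN replicate 2 (0.0496). Snrpn, a core protein of spliceosomal small nuclear ribonucleoproteins, had 7.82 and 10.6 FPKM in NSN and 9.55 and 11.2 in SN oocytes (log2 fold change 0.18, standard error 0.17, limma adjusted p = 0.488). Its groups overlapped, its sign turned after quantile normalization (-0.0026) and without NSN replicate 1 (-0.028), and 19.3% of its exonic bases are shared with Snurf and other genes.

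The ubiquitin genes Ube3a and Usp29 were both higher on average in SN oocytes, and neither was called by limma on FPKM. Ube3a, a ubiquitin ligase expressed from the maternal copy in neurons, had 2.03 and 2.21 FPKM in NSN and 2.99 and 2.75 in SN oocytes. Both SN libraries lay above both NSN libraries. Its log2 fold change was 0.36 (limma adjusted p = 0.143), and without 1 library it was 0.31 to 0.41. Voom called it (adjusted p = 0.0281), but voom with median scaling did not (0.136, log2 fold change 0.28). With all libraries kept, its adjusted p reached 0.309 in limma after median scaling. Usp29, a ubiquitin protease of the Peg3 domain, had 0.912 and 0.781 FPKM in NSN and 1.12 and 0.923 in SN oocytes (log2 fold change 0.18, limma adjusted p = 0.529). Exonic bases of Ube3a (28.5%) and Usp29 (14.8%) are shared with other genes, among them the noncoding Snhg14 for Ube3a. The MAGE family genes Ndn and Magel2 and the makorin Mkrn3, all paternally expressed in the Prader-Willi region, were not listed.

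Of the 8 membrane, matrix and transport genes, only Dcn and Kcnq1 were tested. Dcn, a small leucine-rich proteoglycan of extracellular matrix, had 0.829 and 1.76 FPKM in NSN and 2.72 and 2.18 in SN oocytes, from 28, 61, 90 and 76 read pairs. Both SN libraries were above both NSN libraries, with the lowest value in NSN replicate 1. Limma gave a log2 fold change of 0.76 ± 0.27 (standard error; adjusted p = 0.112), and over the alternatives the adjusted p ranged from 0.0198 to 0.374. Voom called it (0.0448), but voom with median scaling did not (0.1, log2 fold change 0.83). Without NSN replicate 2 the log2 fold change was 1.14, whereas without NSN replicate 1 it was 0.38, so its size depends on that library. Since Dcn is also made by ovarian stroma, 10 theca and stroma markers were read beside it. Of these, 3 were listed, with a summed FPKM of 0.325 and 0.274 in NSN and 0.317 and 0.402 in SN oocytes, led by Star. The collagens Col1a1, Col1a2 and Col3a1 and the related proteoglycan Lum were not listed, nor were Cyp17a1, Acta2 and Tcf21, and Pdgfra was at 0.0197 to 0.0318 FPKM. None of the 3 passed the filter, and the part of other cell types in the values of Dcn was not tested.

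Kcnq1, a potassium channel, had 6.75 and 6.29 FPKM in NSN and 7.50 and 6.82 in SN oocytes (log2 fold change 0.13, standard error 0.12, limma adjusted p = 0.496). Its sign turned after median scaling (-0.018), after quantile normalization (-0.063) and by voom with median scaling (-0.018). Kcnq1 shares 23.6% of its exonic bases with other genes, mostly the noncoding genes of its locus, and counting was without strand.

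The transcription factors and the noncoding RNAs were low. Peg3, a Krüppel-type zinc finger protein, had 0.563 and 0.590 FPKM in NSN and 0.60 and 0.526 in SN oocytes (log2 fold change -0.019, limma adjusted p = 0.954). Plagl1, a zinc finger regulator of an imprinted gene network, had 0.427 and 0.519 FPKM in NSN and 0.620 and 0.506 in SN oocytes (log2 fold change 0.13, limma adjusted p = 0.674). The groups of both genes overlapped. Airn, the antisense RNA that silences Igf2r on the paternal copy in the embryo, had 0.517 and 0.794 FPKM in NSN and 0.844 and 0.823 in SN oocytes (log2 fold change 0.22, limma adjusted p = 0.479). Airn was the only noncoding RNA of the 8 that passed the filter. The log2 fold change of Airn was 0.044 without NSN replicate 1 and 0.39 without NSN replicate 2.

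**Figure D3:**
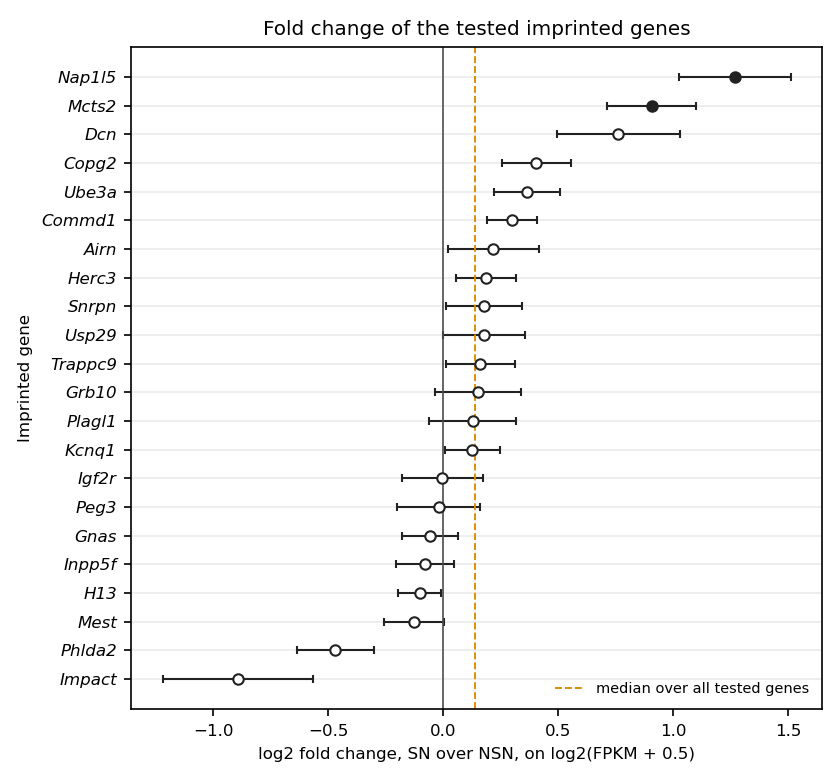
log2 fold change of SN over NSN on the log2(FPKM + 0.5) scale for the 22 tested imprinted genes, with standard errors as bars (2 libraries per group); filled points are called by limma, open points are not, and the dashed line is the median over all tested genes (0.14). Nap1l5 (1.27) and Mcts2 (0.91) stand highest and Impact (-0.89) and Phlda2 (-0.47) lowest; after median scaling all 22 move down, Kcnq1 changes sign and no gene is called.

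The 11 listed genes under the filter had mean FPKM from 0.00966 to 0.421 and at most 139 read pairs in a library, and they were not tested. The maternally expressed noncoding RNA Meg3 was the highest, with 105 and 90 read pairs in NSN and 136 and 139 in SN oocytes (0.380, 0.316, 0.502 and 0.486 FPKM). Its neighbour Rian had 7 and 15 read pairs in NSN and 5 and 6 in SN oocytes. Kcnq1ot1, the long RNA that silences the Kcnq1 domain, had 13, 11, 30 and 9 read pairs, NSN first, over a recovered length of 93651 bases. Meg3 was thus the only noncoding RNA under the filter with more than 30 read pairs in any library. From the Kcnq1 domain, the cyclin-dependent kinase inhibitor Cdkn1c had 8, 7, 11 and 8 read pairs in the same order, and the transporter Slc22a18 had 1, 3, 11 and 6. The SN libraries of Slc22a18 were above those of NSN, on few read pairs. The zinc finger gene Zim1 had 13, 14, 37 and 16 read pairs, the sarcoglycan Sgce had 9, 15, 12 and 5, and Ddc, which makes dopamine and serotonin, had 3, 8, 2 and 1. Rasgrf1, a Ras exchange factor, had 12, 9, 5 and 18. The genes whose maternal copy is silenced through H3K27me3 were represented by 5 members, of which Jade1, Smoc1 and Slc38a4 were not listed. The remaining pair, Sfmbt2 and Gab1, had 0, 5, 6 and 4 and 0, 9, 4 and 3 read pairs. For a count of 0, up to 3 read pairs remain possible, which allows 0.0189 FPKM for Sfmbt2 and 0.0346 FPKM for Gab1 in NSN replicate 1. Neither gene was tested.

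The factors that set and protect imprints ranged widely in level, from 0.18 FPKM for Ehmt2 and 1.85 for Arid4b to 1451 for Zfp57 on average. Of 20 such genes, all were listed and 19 were tested, with only Ehmt2 under the filter. Limma called 3 of them higher (Setdb1, Eed and Suz12) and 1 lower (Kdm1b) in SN oocytes, against 5.95% and 1.98% of all genes tested, and the median log2 fold change was 0.20, against 0.14. At an unadjusted p under 0.05 there were 7 higher and 2 lower of 19, against 2777 and 918 of 11672, and voom called 7 higher and 2 lower, against 15.1% and 4.58%. With median scaling voom called 2 higher and 4 lower, against 6.38% and 8.26%. In limma the 3 higher became 1 with median scaling or quantile normalization and 5 with the filter at a mean of 5 FPKM, and both counts became 0 without the filter or without the variance trend. Zfp57, with 1496 and 1419 FPKM in NSN and 1406 and 1482 in SN oocytes, was the most abundant, and its groups overlapped. Kdm1b, the H3K4 demethylase needed for maternal imprints, had 27.7 and 24.1 FPKM in NSN and 15.5 and 10.2 in SN oocytes. Each SN value was lower than each NSN value, and limma gave a log2 fold change of -1.01 ± 0.19 (standard error; adjusted p = 0.041). The call was lost without NSN replicate 1 (0.0935) and without SN replicate 2 (0.0916), its adjusted p ranged from 0.000952 to 0.0935 over the alternatives, and 22.8% of its exonic bases are shared with other genes.

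Suz12 and Eed are subunits of Polycomb repressive complex PRC2, which lays down H3K27me3. Suz12 had 34.3 and 43.3 FPKM in NSN and 75.0 and 67.8 in SN oocytes (log2 fold change 0.88, standard error 0.13, limma adjusted p = 0.036). Eed had 93.5 and 104 FPKM in NSN and 129 and 132 in SN oocytes (log2 fold change 0.40, standard error 0.08, limma adjusted p = 0.044). In both genes the SN libraries lay above the NSN libraries. The H3K9 methyltransferase Setdb1, which Trim28 recruits and which shares 23.5% of its exonic bases with Cers2 and other genes, had 21.2 and 23.3 FPKM in NSN and 33.8 and 30.6 in SN oocytes (log2 fold change 0.52, standard error 0.10, limma adjusted p = 0.041). With median scaling, limma gave an adjusted p of 0.047 for Suz12, 0.103 for Eed and 0.0705 for Setdb1. The replicate block gave 0.0476 for Suz12 and 0.0608 for both Eed and Setdb1, so only Suz12 was called. Voom with median scaling did not call Eed (0.0673) but called Suz12 (0.00166) and Setdb1 (0.0191). Without NSN replicate 1, SN replicate 1 and SN replicate 2 in turn, none of the calls held, with adjusted p of 0.0679, 0.0607 and 0.0833 for Suz12, 0.153, 0.0942 and 0.117 for Eed, and 0.114, 0.115 and 0.0978 for Setdb1. Over all alternatives the adjusted p ranged from 0.000438 to 0.0921 for Suz12, from 0.00647 to 0.153 for Eed and from 0.00279 to 0.115 for Setdb1.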

How the data were processed

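RNA was measured in 2 NSN and 2 SN libraries. The authors trimmed reads with Trim Galore 0.6.10, aligned the rest with HISAT2 (genome GRCm39), counted with featureCounts over GENCODE exons without strand, and deposited FPKM from their own script. Their DESeq2 test was not used here. The total of each library was solved from 5 mitochondrial tRNA genes, and then the smallest length that gave whole read pairs was found (tolerance 1e-06) for 16842 of 16861 genes (99.89%).

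Limma 3.58.1 in R 4.3.3 (lmFit, eBayes with a variance trend) was fitted on log2(FPKM + 0.5) for the 11672 genes whose mean FPKM reached 0.5, and p-values were adjusted over all of them. The procedure was tested on simulated data, where directions were right and the share of wrong calls was above the nominal level. Alternatives were pseudocounts of 0.1 and 1, quantile normalization, median scaling, no variance trend, a replicate block, no filter, filters at a mean of 5 FPKM and at 0.5 FPKM in every library, voom on read pairs with total or median scaling, other thresholds (adjusted p under 0.1, fold of at least 1.5) and each library left out in turn. Python 3.11.15, numpy 2.4.6, pandas 2.3.3 and matplotlib 3.10.9 were used.

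All 50 imprinted genes are named; tested ones have values in every library, and called ones and the 5 most abundant have standard errors. Called imprinting factors and the parents Mcts1 and Zrsr2 are given as well. Zfp57, and the standard errors of Dcn and Impact, were picked after their values were seen. The genes and lists were chosen with earlier results of these data known. Gene positions, exons and shares of exonic bases came from a later GENCODE release on GRCm39 than the one used for counting. Promoter windows came from RefSeq.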

Additional observations from a re-analysis of the deposited data

How the results depend on the processing

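The 2 imprinted genes called higher in SN oocytes became 1 with a pseudocount of 0.1, 1 with the replicate block, 1 by voom with median scaling, and 0 with quantile normalization, median scaling, no variance trend, no filter, or filters at a mean of 5 FPKM and at 0.5 FPKM in every library, of which the last 2 leave both genes untested. With the replicate block the 3 imprinting factors called higher also became 1. The replicate numbers do not pair the libraries (correlation of replicate differences -0.07). The 0 genes called lower became 1 by voom and 1 by voom with median scaling. Leaving out each library in turn, with the lone library assumed to vary like the other group, gave 0 to 2 genes higher, 0 to 1 lower, 13 to 15 with a higher mean and a median log2 fold change from 0.12 to 0.17. The number with a higher mean, 14, became 3 of 5 with the filter at a mean of 5 FPKM. The median log2 fold change of 0.16 became 0.039 after median scaling, 0.037 after quantile normalization and 0.056 by voom with median scaling, settings built to bring the libraries to a common middle. Elsewhere the cause was not tested.

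Signs turned without passing the threshold. Quantile normalization gave -0.0026 for Snrpn and -0.063 for Kcnq1, and median scaling gave -0.018 for Kcnq1, by voom as well. Without 1 library, the lowest and highest log2 fold changes were -0.12 and 0.11 for Igf2r, -0.070 and 0.031 for Peg3, -0.028 and 0.38 for Snrpn, -0.30 and 0.046 for Mest, and -0.011 and 0.31 for Grb10. Read pairs limit the precision of the low genes.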

Other observations

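A further 45 imprinted genes outside the 50 were read as a list. Of these, 29 were listed and 16 were tested, and limma called 0 of them in either direction, with 3 at an unadjusted p under 0.05, all higher in SN oocytes, and 2 called higher by voom. Over all genes limma called 5.95% higher and 1.98% lower, and voom 15.1% and 4.58%. The 0 higher became 2 without NSN replicate 2, 1 with 0.5 FPKM required in every library and 1 by voom with median scaling, which also called 1 lower. The mean was higher in SN oocytes for 12 of the 16, against 66.7% of all genes, and the median log2 fold change was 0.14, the same as over all genes tested. The most abundant was Cmklr2, a chemerin receptor, with 167 and 188 FPKM in NSN and 210 and 209 in SN oocytes (log2 fold change 0.24, limma adjusted p = 0.106). It was more abundant than any of the 33 genes that were listed among the 50 described above, and was named after its values were seen. Nap1l4, of the same nucleosome assembly protein family as Nap1l5, had 18.98 and 22.4 FPKM in NSN and 21.0 and 17.7 in SN oocytes, and its groups overlapped.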
